A study of Mus musculus with 6 samples.

Results

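The 93 genes described here encode the nuclear subunits of oxidative phosphorylation and a set of complex I assembly factors. They were chosen by symbol from the RefSeq protein-coding genes on chromosomes 1 to 19 of the mouse build mm10 (symbols beginning Nduf, Uqcr or Atp5, or Cox4 to Cox8, and Sdha, Sdhb, Sdhc and Sdhd), and make up 93 of the 20560 autosomal protein-coding genes used. Grouped by symbol alone, they comprise 39 complex I genes and 8 complex I assembly factor genes (the Ndufaf genes). The others are 4 complex II, 8 complex III, 17 complex IV and 17 complex V genes. The complex I group holds every other Nduf symbol, Ndufa4 and Ndufa4l2 among them, and the complex IV group only Cox symbols. Whether each protein belongs to the complex of its symbol was not checked. Chromatin immunoprecipitation with sequencing had been carried out for CHD7 and for H3K27ac, with input chromatin beside them, in 2 libraries for each of these 3 groups. All 3 groups came from the same kind of cell: males carrying Wnt1-Cre2 were mated to mTmG females, and GFP-positive cells of pharyngeal arches 3 to 6 were sorted from their embryos at embryonic day 10.5. Wnt1-Cre2 recombines the reporter in the neural crest lineage, so the label rests on lineage and position, and there was no CHD7 mutant or second cell type among the samples analysed here. Nothing in the labels ties the libraries to different litters or sorts, so p-values between them measure only the spread of these libraries, which may be technical.

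Complexes I and II feed electrons into the inner mitochondrial membrane, complexes III and IV pass them on to oxygen, and complexes I, III and IV pump the protons whose return drives ATP synthesis by complex V. Most subunits are encoded in the nucleus and expressed in nearly every cell, while some complex IV subunits have isoforms restricted to muscle, lung or testis. CHD7 is an ATP-dependent chromatin remodeller mutated in CHARGE syndrome, in which neural crest derivatives including the heart outflow tract are affected, and H3K27ac (acetylated lysine 27 of histone H3) marks active promoters and enhancers. Promoters of respiratory chain genes are known for sites of the nuclear factors NRF1, GABP (an ETS factor) and YY1.

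The promoters of members with high CHD7 enrichment at a gene end, 1 from each complex and the assembly factors, are shown first, as the sequence around which the regions below lie. Each runs from 120 bases before to 30 bases after the listed transcription start, read on the strand of the gene, from the RefSeq promoter table of GRCm38.p6 (mm10), which matched 75 of the 93 members by symbol. Those not matched included Ndufa2, Ndufa4l2, Ndufb4c, Ndufb9, Ndufs1, Ndufaf6, Sdhc, Uqcrb, Uqcrc2, Uqcrq, Cox4i1, Cox4i2, Cox6a2, Cox6c, Cox8c, Atp5a1 and Atp5mpl. Capitals mark matches to the motifs searched for NRF1, its core, ETS and the YY1 forms (letters given further on). Ndufa3 lies at chr7:3617253-3617402 on the plus strand, Ndufaf4 at chr4:24897963-24898112 on the plus strand, Sdha at chr13:74350211-74350360 on the minus strand, Uqcrc1 at chr9:108936528-108936677 on the plus strand, Cox5b at chr1:36691367-36691516 on the plus strand and Atp5e at chr2:174464072-174464221 on the minus strand. Among members with a listed start, these had the highest mean CHD7 fold at a gene end in their complex or group. For complex IV, the regions at the starts of Cox5a and Cox7a2, which lie inside those genes, had higher mean folds. In library 2 alone, Cox5b exceeded both.
Ndufa3: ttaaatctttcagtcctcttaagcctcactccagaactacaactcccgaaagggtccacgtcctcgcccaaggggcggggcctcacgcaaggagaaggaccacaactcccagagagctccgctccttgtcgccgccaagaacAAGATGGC
Ndufaf4: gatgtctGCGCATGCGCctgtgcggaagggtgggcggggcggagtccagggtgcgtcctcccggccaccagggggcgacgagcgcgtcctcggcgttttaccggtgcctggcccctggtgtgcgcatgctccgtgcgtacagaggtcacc
Sdha: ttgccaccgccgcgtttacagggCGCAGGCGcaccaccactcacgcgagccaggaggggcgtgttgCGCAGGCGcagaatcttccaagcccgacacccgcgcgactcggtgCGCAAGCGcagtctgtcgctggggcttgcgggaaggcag
Uqcrc1: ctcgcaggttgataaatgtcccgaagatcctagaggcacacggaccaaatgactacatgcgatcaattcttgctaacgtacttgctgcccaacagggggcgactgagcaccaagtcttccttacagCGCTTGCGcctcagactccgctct
Cox5b: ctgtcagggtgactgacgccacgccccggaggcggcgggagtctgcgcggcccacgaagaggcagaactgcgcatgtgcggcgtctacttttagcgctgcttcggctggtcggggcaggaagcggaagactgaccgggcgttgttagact
Atp5e: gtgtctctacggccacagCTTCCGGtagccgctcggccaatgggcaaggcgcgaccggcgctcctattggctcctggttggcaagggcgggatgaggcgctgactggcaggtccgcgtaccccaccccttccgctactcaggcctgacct

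Ndufa3 carried a match to the short YY1 form that begins 22 bases after its start, Ndufaf4 an NRF1 match from position −113 relative to the start, Sdha 3 NRF1 core matches, Uqcrc1 an NRF1 core match on the opposite strand across the bases just after the start, and Atp5e an ETS match on the opposite strand. The Cox5b stretch held none of these. Members without a CHD7 region are shown for contrast. Ndufab1 (chr7:122101819-122101968, minus strand) had the highest H3K27ac fold among them. Cox8b (chr7:140900417-140900566, minus strand), the muscle isoform of a complex IV subunit, had neither mark and was chosen after its TATA match, in capitals, had been seen.
Ndufab1: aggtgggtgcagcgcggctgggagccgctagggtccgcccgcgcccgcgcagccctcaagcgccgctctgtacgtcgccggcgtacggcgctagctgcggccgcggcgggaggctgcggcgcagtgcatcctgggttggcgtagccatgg
Cox8b: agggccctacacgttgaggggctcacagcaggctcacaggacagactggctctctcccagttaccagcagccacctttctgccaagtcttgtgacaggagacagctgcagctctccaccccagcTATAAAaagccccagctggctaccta

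A peak within 1 kb of either end of the gene was found for most members in every CHD7 and H3K27ac library and for none in input. CHD7 library 1 had a peak at 78 members (83.9%) and library 2 at 74 (79.6%), against 53.2% and 51.3% of all autosomal protein-coding genes. H3K27ac library 1 had a peak at 79 members (84.9%) and library 2 at 81 (87.1%), against 52.9% and 51.4% of all genes. In the input libraries 0 of 93 members had a peak, against 0.0632% and 0.136% of all genes. The mean share was 81.7% ± 3.04 (SD, n = 2) for CHD7 and 86.0% ± 1.52 (SD, n = 2) for H3K27ac. The difference of −4.30 percentage points between CHD7 and H3K27ac had p = 0.33, and those of each against input (81.7 and 86.0 points) also had p = 0.33 (exact permutation test, two-sided, adjusted p = 0.33 over the 3 comparisons). That is the smallest p that 2 libraries against 2 can give. The lists hold 31425 and 26600 CHD7 peaks, 23786 and 22244 H3K27ac peaks, and 417 and 475 input peaks on chromosomes 1 to 19, and since they give no read counts, the depth of each library is unknown.

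**Figure D1:**
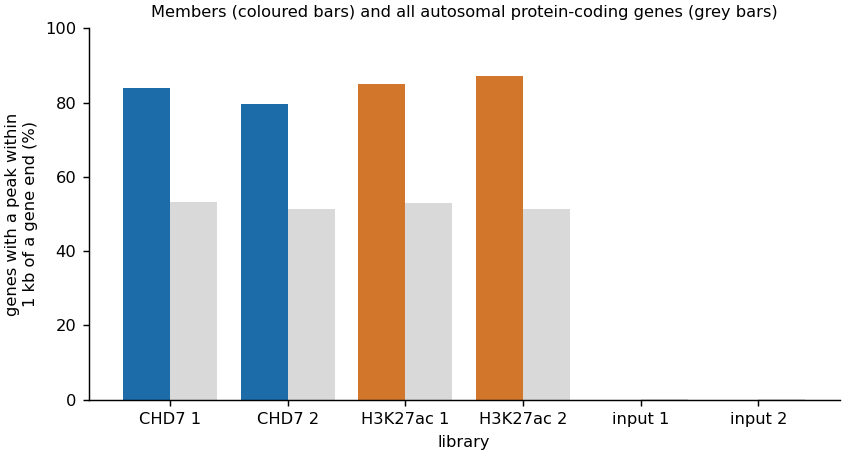
Percent of the 93 members (coloured bars) and of all 20560 autosomal protein-coding genes (grey bars) with a peak within 1 kb of a gene end, in each of the 6 libraries. The 4 ChIP libraries lie between 79.6% and 87.1% for the members, above the grey bar of the same library in each, and both input libraries are at 0 for the members.

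A region was next required to have overlapping peaks in both libraries of a group. By this rule 68 of the 93 members (73.1%) had a CHD7 region at a gene end, beside 46.2% of all autosomal protein-coding genes, and 77 (82.8%) had an H3K27ac region, beside 49.3%. Both marks were present at 65 members (69.9%, background 41.2%), H3K27ac without CHD7 at 12 (12.9%, background 8.14%), CHD7 without H3K27ac at 3 (3.23%, background 5.06%) and neither at 13 (14%, background 45.6%). Set against H3K27ac, the CHD7 count was near that of genes at large: 65 of the 77 members with H3K27ac (84.4%) had CHD7, and so did 83.5% of all genes with H3K27ac. In turn, 65 of the 68 with CHD7 (95.6%) had H3K27ac, beside 89% of all genes with CHD7. With a −log10 q of at least 10 required of each peak, CHD7 remained at 14 members (15.1%, beside 11.2% of all genes) and H3K27ac at 53 (57.0%, beside 29.6%). The CHD7 count thus fell far more than the H3K27ac count under the stricter threshold.

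**Figure D2:**
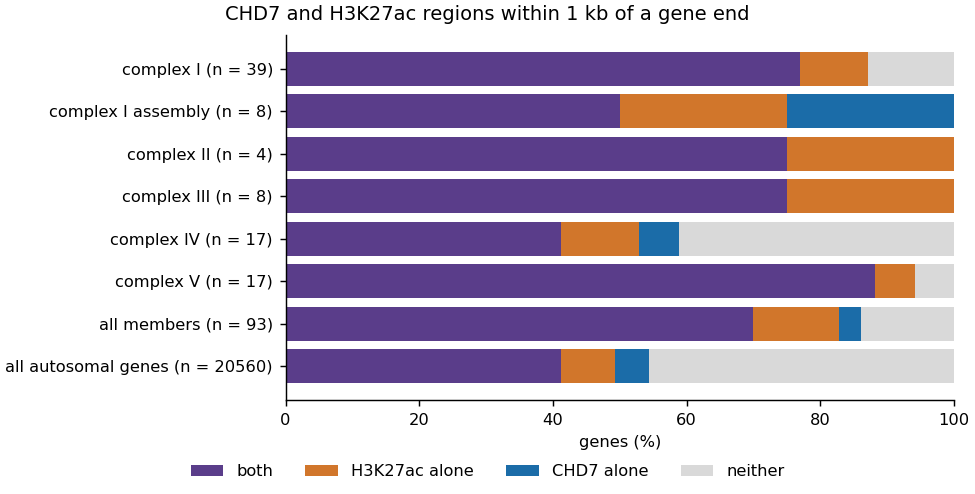
Percent of genes with both marks, H3K27ac alone, CHD7 alone or neither within 1 kb of a gene end, for each complex, all 93 members and all 20560 autosomal genes. Complex IV has the largest grey part among the complexes (7 of 17 genes), and complex V the largest share with both (15 of 17).

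The fold given for each region is the enrichment over local background at the peak summit, as the authors' peak caller gave it for each library. It describes and ranks regions within one antibody, and folds of CHD7 and H3K27ac are not set against each other here. The median CHD7 fold of the 68 members with a region was 3.59 in library 1 and 3.64 in library 2, beside 3.74 and 3.73 over all genes with a region, and 31 and 30 of the 68 lay above the all-gene median. For H3K27ac the median of the 77 members was 5.19 and 5.35, beside 4.88 and 4.77, and 51 and 52 of the 77 lay above it. The members' median thus lay slightly below that of all genes for CHD7 and above it for H3K27ac, and both gaps were small beside the spread among genes, whose middle range for H3K27ac ran from 4.0 to 5.83 in library 1. Across members, fold in library 1 and library 2 had a Spearman correlation of 0.58 for CHD7 (n = 68) and 0.81 for H3K27ac (n = 77). Mean CHD7 and mean H3K27ac fold had one of 0.25 over the 65 members with both, beside 0.44 over all 8462 genes with both. These are descriptions across genes, which share libraries and are no independent replicates.

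**Figure D3:**
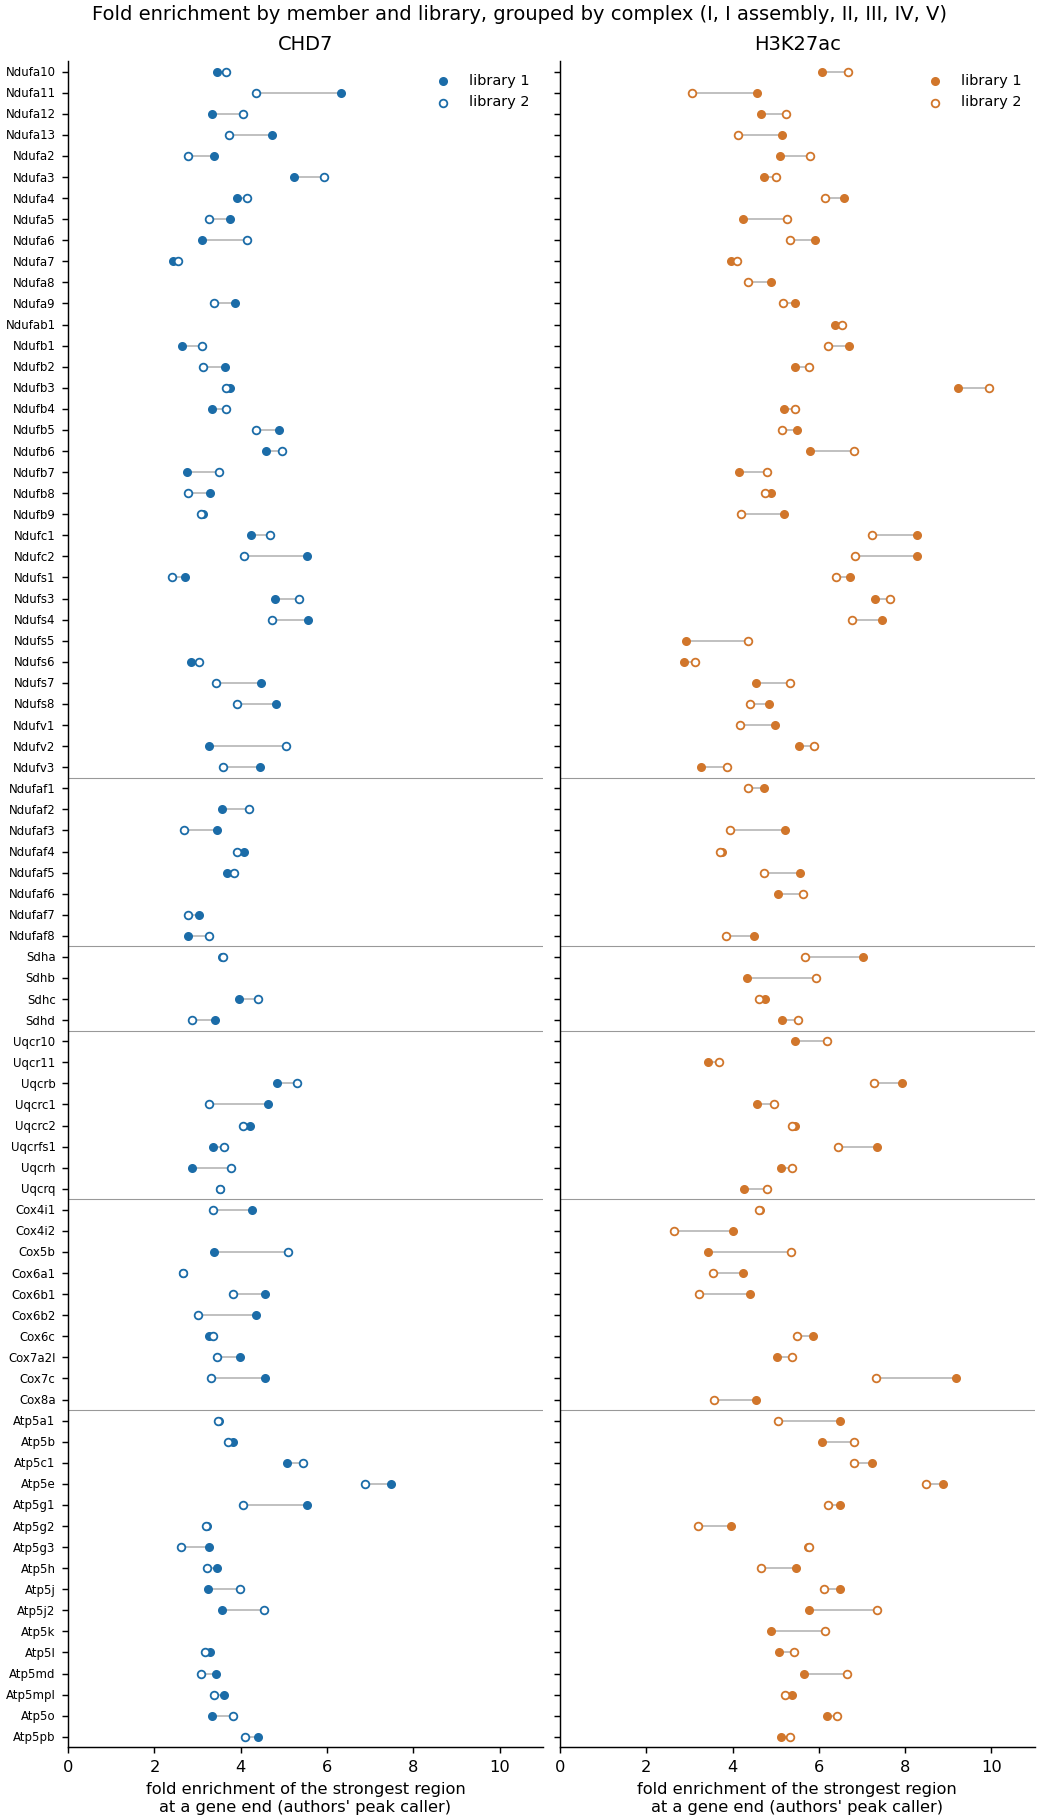
Fold enrichment of the strongest region at a gene end for the 80 members with a region of either mark there (rows, grouped by complex with grey lines between groups), with library 1 as filled and library 2 as open circles joined by a line, CHD7 on the left and H3K27ac on the right. A row without circles on one side had no region of that mark. Atp5e stands farthest right for CHD7 (7.47 and 6.87) and Ndufb3 for H3K27ac (9.24 and 9.95).

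Complex I, the NADH dehydrogenase, had CHD7 at 30 and H3K27ac at 34 of the 39 genes given to it by symbol. The strongest CHD7 region lay at Ndufa3, an accessory subunit of the membrane arm, with folds of 5.22 and 5.94 (mean 5.58 ± 0.51, SD, n = 2). Ndufa11, another accessory membrane subunit, had 6.31 and 4.36, and Ndufs4, an accessory subunit of the peripheral arm whose loss causes Leigh syndrome, had 5.57 and 4.72. The libraries overlapped in the order of these genes: Ndufa11 led in library 1 and Ndufa3 in library 2. The highest H3K27ac folds were 9.24 and 9.95 at Ndufb3, 8.28 and 7.24 at Ndufc1, and 8.26 and 6.83 at Ndufc2, accessory subunits of the membrane arm. Ndufb3 exceeded both others in each library, yet its CHD7 folds of 3.75 and 3.67 were close to the median of all genes. At the other extreme, Ndufa7, an accessory subunit, had the lowest mean CHD7 fold of all members with a region (2.42 and 2.54), and Ndufs6 the lowest mean H3K27ac fold (2.88 and 3.12). In library 2 alone, Ndufs1 was lower for CHD7 (2.41), and Ndufa11 (3.06) and the complex IV isoform Cox4i2 (2.65) were lower for H3K27ac.

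Ndufa3 showed the marks on opposite sides of its start. Its CHD7 region (chr7:3616803-3617293) lay upstream, also within 1 kb of an end of Oscar, and its H3K27ac region (chr7:3617403-3618011) began downstream, with no overlap. CHD7 and H3K27ac regions did not overlap at 3 of the 65 members with both (Ndufa3, Cox6a1 and Cox6b1), and overlapped at the other 62. This share by gene was not counted over all genes. By region, 87.5% of CHD7 regions at member ends overlapped H3K27ac, beside 80.4% at all gene ends.

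H3K27ac without CHD7 was found at 4 complex I genes. Ndufab1, the mitochondrial acyl carrier protein, had H3K27ac folds of 6.37 and 6.54 and a CHD7 peak in library 2 alone (3.82). Ndufv1, the core subunit that binds NADH and flavin, had H3K27ac folds of 4.99 and 4.17, and Ndufa8, an accessory subunit, 4.89 and 4.36. Both of these had a CHD7 peak in each library (2.85 and 2.82 at Ndufv1, 3.00 and 3.16 at Ndufa8), but the peaks of the 2 libraries did not overlap. Ndufs5, an accessory subunit, had H3K27ac folds of 2.93 and 4.36 and a CHD7 peak of 2.82 in library 1 alone. The lack of a CHD7 region at these genes thus rests on the demand for overlapping peaks in both libraries. The genes grouped with complex I that had neither mark included Ndufb10, Ndufa4l2, Ndufb4b and Ndufb4c. Ndufb10 had a CHD7 peak in library 1 (2.35) and an H3K27ac peak in library 2 (3.31). Ndufb4b and Ndufb4c, short genes of 471 and 485 bp related to Ndufb4, had no peak in any library, although reads of near-identical copies cannot always be placed.

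The complex I assembly factors, which help to build the complex and do not remain in it, had CHD7 at 6 and H3K27ac at 6 of 8 genes, with both at 4. The highest CHD7 folds were 4.08 and 3.91 at Ndufaf4, 3.55 and 4.18 at Ndufaf2, and 3.69 and 3.84 at Ndufaf5. These differ by less than the gap between libraries at Ndufaf2. The highest H3K27ac folds were 5.04 and 5.64 at Ndufaf6, 5.56 and 4.72 at Ndufaf5, and 5.21 and 3.95 at Ndufaf3. This group held 2 of the 3 members with a CHD7 region alone, each with an H3K27ac peak in a single library (4.24 in library 1 at Ndufaf2, 4.52 in library 2 at Ndufaf7). Ndufaf2 had CHD7 at chr13:108158067-108158508, a region also within 1 kb of an end of Ercc8, a DNA repair gene. Ndufaf7, a mitochondrial methyltransferase, had CHD7 folds of 3.02 and 2.79 at chr17:78936640-78936968, within 1 kb of an end of Cebpz. The reverse was seen at Ndufaf6 and at Ndufaf1 (H3K27ac 4.72 and 4.36), each with a CHD7 peak in library 1 alone (3.90 and 2.70).

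All 4 complex II genes, which encode succinate dehydrogenase, had H3K27ac and 3 had CHD7. Sdhc, a membrane anchor, had CHD7 folds of 3.96 and 4.40 and H3K27ac folds of 4.76 and 4.61. Sdha, the flavoprotein that oxidises succinate, had CHD7 folds of 3.57 and 3.59 and H3K27ac folds of 7.02 and 5.67. Sdhd, the other anchor, had CHD7 folds of 3.40 and 2.86 and H3K27ac folds of 5.15 and 5.52. CHD7 thus fell in the order Sdhc, Sdha, Sdhd in both libraries, while for H3K27ac Sdha led in library 1 and Sdhb in library 2. Sdhb, the iron-sulphur subunit, had H3K27ac folds of 4.34 and 5.93 (chr4:140961362-140962002) and a CHD7 peak in library 2 alone (3.23). A CHD7 region in both libraries lay 3.21 kb outside Sdhb, at chr4:140957402-140958066 (4.30 and 4.05), with no H3K27ac region over it.

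Complex III, cytochrome c reductase, had H3K27ac at all 8 genes and CHD7 at 6. Uqcrb, the ubiquinone-binding subunit, had the highest CHD7 folds (4.84 and 5.29) and the highest mean H3K27ac fold (7.94 and 7.27). The core protein genes Uqcrc2 and Uqcrc1 followed for CHD7, with 4.21 and 4.06 and with 4.63 and 3.26. Uqcrfs1, the Rieske iron-sulphur protein, had H3K27ac folds of 7.34 and 6.45, and Uqcr10, a small subunit, 5.44 and 6.18. In both libraries Uqcrb exceeded Uqcrfs1 and Uqcr10 for H3K27ac. H3K27ac without CHD7 was found at Uqcr10, with a CHD7 peak in library 1 alone (3.36), and at Uqcr11, another small subunit, with H3K27ac folds of 3.43 and 3.68 and no CHD7 peak in either library.

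Complex IV, cytochrome c oxidase, had the lowest shares. Of its 17 genes with Cox symbols, CHD7 was at 8 (47.1%) and H3K27ac at 9 (52.9%), near the 46.2% and 49.3% of all genes. Among its subunits found in most tissues, Cox5b had CHD7 folds of 3.38 and 5.08, Cox6b1 4.55 and 3.81, and Cox7c 4.56 and 3.31. Cox5b ranked below both others in library 1 and above both in library 2, so no order among them holds. Cox7c had the highest H3K27ac folds (9.19 and 7.32), followed by Cox6c (5.86 and 5.49) and Cox7a2l, a factor of respiratory supercomplexes (5.03 and 5.39). Cox8a had H3K27ac (4.54 and 3.56) with a CHD7 peak in library 1 alone (3.83).

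The genes without marks in complex IV were mostly isoforms of restricted tissues. A list of 9 subunit isoforms held Ndufa4l2, 7 Cox isoforms and Atp5g2, and not all of these are of restricted tissues. Of the 9, 2 had CHD7, 2 had H3K27ac and 6 had neither at a gene end, beside 46.2%, 49.3% and 45.6% of all genes. The muscle and heart isoforms Cox6a2, Cox7a1 and Cox8b and the testis isoforms Cox7b2 and Cox8c had no region of either mark, and Cox7a1 alone of these had a single-library peak (CHD7 library 2, 3.53). Ndufa4l2, a hypoxia-induced relative of Ndufa4, had CHD7 peaks of 2.16 and 3.17 that did not overlap, and a weak H3K27ac region inside the gene (2.82 and 2.12). Cox4i2, the lung and hypoxia isoform, had H3K27ac folds of 4.01 and 2.65 and no CHD7 peak. Cox6b2, the testis isoform of Cox6b1, had CHD7 without an H3K27ac region, with folds of 4.36 and 3.00 (chr7:4752609-4753064, also within 1 kb of an end of Fam71e2), and its H3K27ac peaks in the 2 libraries did not overlap. Atp5g2, one of the c ring isoforms of complex V, was the list's only gene with both marks (CHD7 3.21 and 3.20, H3K27ac 3.95 and 3.19). These isoforms give no reading of the cell type, since the marks were measured and not the transcripts.

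Cox5a and Cox7a2, widely expressed subunits, also counted as having neither mark, because their annotated gene spans begin well before the listed start. The first start of Cox5a lay 3904 bp inside the gene and had CHD7 (chr9:57520606-57521795, 4.20 and 4.61) and H3K27ac (chr9:57521246-57522209, 5.75 and 5.28). That of Cox7a2 lay 11569 bp inside and had CHD7 (chr9:79759888-79760506, 5.62 and 4.55) and H3K27ac (chr9:79759835-79760758, 7.43 and 7.47). With Cox5a and Cox7a2 read at their starts, every complex IV gene with neither mark was tissue-restricted.

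Complex V, the ATP synthase, had CHD7 at 15 and H3K27ac at 16 of 17 genes. Atp5e, the epsilon subunit of the catalytic head, had the highest CHD7 fold of all members, with 7.47 and 6.87 (mean 7.17 ± 0.43, SD, n = 2), at chr2:174463425-174464573. Its mean lay at percentile 99.5 of all genes with a CHD7 region. Its H3K27ac folds were 8.87 and 8.48 at chr2:174463342-174464141, and both regions also lay within 1 kb of an end of Prelid3b. Atp5c1, the central stalk subunit gamma, followed with CHD7 folds of 5.07 and 5.45 and H3K27ac folds of 7.22 and 6.82. Atp5g1, a gene of the proton-translocating c ring, had CHD7 folds of 5.53 and 4.06, and Atp5j2, a membrane subunit, had H3K27ac folds of 5.77 and 7.34. In both libraries the CHD7 fold of Atp5e exceeded that of every other member. Atp5k, a membrane subunit, had H3K27ac alone (4.89 and 6.14), with a CHD7 peak in library 1 alone (3.59). Atp5d, the delta subunit of the head, had neither mark at an end, but both at its listed start 3577 bp inside the gene (chr10:80142437-80142852 for CHD7, 2.90 and 2.40, and chr10:80142395-80142883 for H3K27ac, 4.28 and 4.33).

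Of the 25 members without a CHD7 region, 12 had no CHD7 peak at an end in either library, 10 had one in a single library and 3 had peaks in both libraries that did not overlap. Of the 16 without an H3K27ac region, 11 had no peak in either library. Counting regions at a gene end or at a listed start, CHD7 was present at 71 members (76.3%, beside 49.5% of all genes), H3K27ac at 80 (86.0%, beside 52.6%), both at 68 (beside 44.4%) and neither at 10 (beside 42.3%). The last included Ndufb10, Ndufb4b, Ndufb4c and 6 of the listed isoforms (Cox6a2, Cox7a1, Cox7b2, Cox8b, Cox8c and Ndufa4l2).

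The members often lay close to another gene. Another protein-coding gene end was found within 1 kb for 52 of the 93 (55.9%), against 25.6% of all genes. CHD7 was present at 42 of these 52 (80.8%), beside 67.4% of all genes with such a neighbour, and at 26 of the 41 members without one (63.4%), beside 38.9%. H3K27ac was present at 42 of the 52 (80.8%, beside 71.8%) and at 35 of the 41 (85.4%, beside 41.6%). The members' shares lay above those of all genes in both classes, by more where no neighbour was close. Of the 68 members with CHD7, 38 (55.9%) had a region that also lay within 1 kb of another gene's end, against 31.9% of all genes with CHD7, and for H3K27ac it was 35 of 77 (45.5%) against 30.3%. With such shared regions left out, CHD7 remained at 33 members (35.5%), close to the 33.4% of all genes counted the same way, and H3K27ac at 43 (46.2%, beside 35.9%). Which of the paired genes a shared region belongs to cannot be told apart from position.

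Several of these neighbours were themselves genes of mitochondria or of their control. Atp5j, a coupling factor of the ATP synthase, shared its CHD7 regions (the stronger at chr16:84835024-84835646, 3.23 and 3.98) with Gabpa, which encodes the DNA-binding subunit of GABP. Ndufb5 and Ndufs6 shared theirs with the mitochondrial ribosomal protein genes Mrpl47 and Mrpl36. The Sdhd region (chr9:50603977-50604858) also lay within 1 kb of an end of Timm8b, a chaperone of mitochondrial protein import. These examples were chosen after the neighbours had been listed.

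At the 88 CHD7 regions at member ends, 77 (87.5%) overlapped an H3K27ac region, beside 80.4% of CHD7 regions at all gene ends. Of the 104 H3K27ac regions there, 73 (70.2%) overlapped CHD7, beside 72.8%. None of either kind overlapped an input region. CHD7 regions had a median width of 585.5 bp, against 689 bp over all gene ends, and H3K27ac regions 752 bp against 786 bp. Most lay at the end that holds the start. Of 57 members with a listed start and a CHD7 region at an end, none had it at the far end alone. The same held for 64 members with H3K27ac. The share over all genes was not counted, so this is not read as a trait of the members. Atp5b, the catalytic beta subunit, had its strongest CHD7 region at its far end (chr10:128090428-128091522, 3.81 and 3.71), within 1 kb of an end of Baz2a and without H3K27ac. Its region at the start (chr10:128083386-128083816) was weaker for CHD7 (3.01 and 3.05) and lay within H3K27ac (6.08 and 6.82).

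Around the 75 listed starts, CHD7 lay within 1 kb of 60 (80%, beside 47.6% of 16457 genes) and H3K27ac of 67 (89.3%, beside 51.5%). The CHD7 regions covered the first start at 23 of 60 members (38.3%, beside 41.9%), lay on both sides of it without covering it at 8 (13.3%, beside 12.8%), only upstream at 13 (21.7%, beside 16%) and only downstream at 16 (26.7%, beside 29.3%). H3K27ac regions covered the start at 36 of 67 (53.7%, beside 53.8%) and lay only upstream at 4 (5.97%, beside 7.62%). Few summits lay at the start itself, among members as among all genes. The CHD7 summit lay within 100 bp of it at 1 and 2 of the 60 members in the 2 libraries (background 3.76% and 4.18%), and 200 to 400 bp downstream at 24 and 25 (40.0% and 41.7%, background 34.7% and 35.7%). It lay 200 to 400 bp upstream at 16 and 11 (26.7% and 18.3%, background 13.9% in each). The H3K27ac summit lay 200 to 400 bp downstream at 39 and 42 of the 67 members (58.2% and 62.7%, background 42.9% and 43%), and the same distance upstream at 11 and 6 (16.4% and 8.96%, background 10.8% and 11%). It lay within 100 bp of the start at 2 members in each library (background 4.48% and 4.53%).

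**Figure D4:**
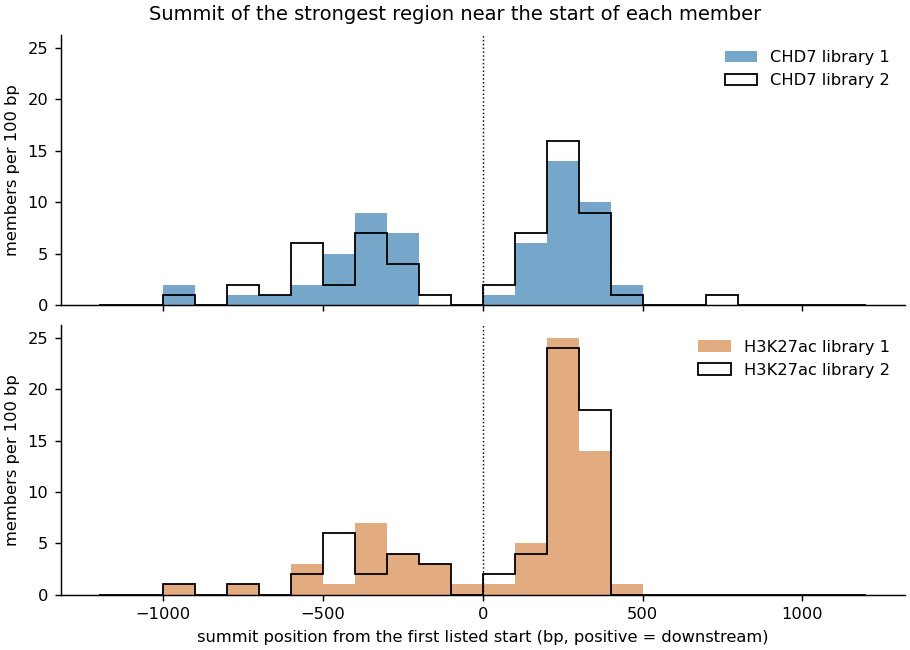
Position of the summit of the strongest region near the first listed start of each member, in bp with positive values downstream, as members per 100 bp, for CHD7 (top, 60 members) and H3K27ac (bottom, 67 members), library 1 filled and library 2 outlined. Summits gather on both sides of the start and few lie within 100 bp of it, and the downstream side holds 46 and 48 of the 67 H3K27ac summits but 33 and 36 of the 60 CHD7 summits.

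CHD7 summits lay downstream of the start at 33 and 36 of 60 members (55.0% and 60.0%, beside 64.3% and 64.6% of all genes), and H3K27ac summits at 46 and 48 of 67 (68.7% and 71.6%, beside 70.2% and 70.4%). At the 57 members with both marks near the first start, the summits of CHD7 and H3K27ac of the same library number were a median of 68 and 71 bp apart (89 and 83 bp over all genes with both there). They lay within 150 bp of each other at 36 and 38 of the 57 (63.2% and 66.7%, beside 60.2% and 62.1%), a share near that of all genes. The CHD7 summit lay upstream of the H3K27ac summit at 36 and 42 (63.2% and 73.7%, beside 53% and 54.8%).

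The promoter windows, which run from 250 bases before to 50 bases after each listed start, were searched on both strands for short motifs of factors known at these genes. A gene was counted once if the window of any of its listed starts held a match, and 5 members had 2 listed starts. The NRF1 site GCGCATGCG was found in 10 of 75 members (13.3%). The share was 2.66% of all 16457 genes with a listed start and 4.57% of genes with CHD7 near a start. The looser NRF1 core CGCANGCG, which overlaps that site, was found in 29 (38.7%, beside 12.7% and 21.3%). The YY1 site AAGATGGCG was found in 8 (10.7%, beside 2.14% and 3.78%) and its shorter form AAGATGGC in 11 (14.7%, beside 3.59% and 5.51%). NRF1 and YY1 letters were thus more frequent at the members than at all genes and than at genes with CHD7. The ETS site CCGGAAG was found in 19 (25.3%, beside 13.3% and 20.9%). At least 1 of NRF1 core, ETS and the short YY1 form was found in 48 members (64.0%, beside 25.6% and 40.6%). The SP site GGGCGG was in 34 (45.3%, beside 50.3% and 73.1%), the CCAAT box, searched as ATTGG, in 32 (42.7%, beside 42.3% and 43.7%), the CRE TGACGTCA in 4 (5.33%, beside 2.63% and 4.12%) and TATAAA in 8 (10.7%, beside 15% and 8.08%). The SP site, the most frequent of the set, was less frequent at the members than at genes with CHD7. The number of CG dinucleotides was taken, for each gene, from its window with the most. Its median was 20 for members, 15 for all genes and 24 for genes with CHD7 near a start. Base composition thus differs between these sets, and its part in the motif shares was not tested.

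**Figure D5:**
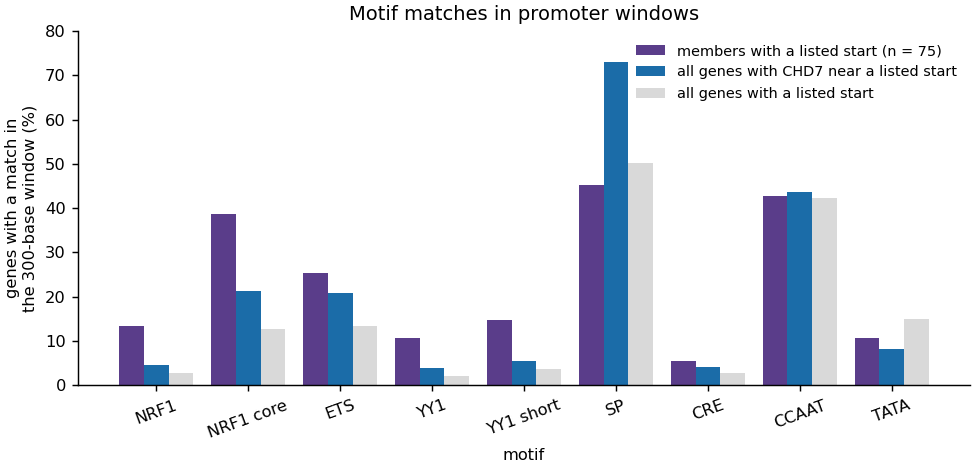
Percent of genes with a match to each motif on either strand in any of their promoter windows. The sets are 75 members, all genes with CHD7 within 1 kb of a listed start and all 16457 genes with a listed start. Members stand above both other sets for NRF1, NRF1 core, ETS, YY1 and its short form, and below genes with CHD7 for the SP site.

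Place and strand of the YY1 matches were recorded for members and not counted over all genes. All 8 read on the strand of the gene, and 7 began between 10 and 35 bases after the start. That of Atp5j began at position −88 relative to a listed start that lies downstream of its first start, and so downstream of that first start. All 8 genes had CHD7 within 1 kb of the start, as had 60 of all 75 members with a listed start (80%). The short form was in 11 of the 60 members with CHD7 there and in 0 of the 15 without, and over all genes it was in 5.51% with CHD7 and 1.83% without. CRE was likewise in 4 of the 60 and 0 of the 15 (all genes 4.12% and 1.26%). ETS was in 14 of the 60 and 5 of the 15 (all genes 20.9% and 6.41%). NRF1 was in 7 and 3 (all genes 4.57% and 0.917%) and NRF1 core in 23 and 6 (all genes 21.3% and 4.97%). For ETS, NRF1 and NRF1 core, the share was thus lower in members with CHD7 than in those without, the reverse of all genes. These counts are small. The 8 sites are shown with up to 10 bases on either side, on the strand of the gene, with the match in capitals.
Atp5j: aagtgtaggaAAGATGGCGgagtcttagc
Atp5j2: ccaggacttcAAGATGGCGtcactcggtg
Ndufa9: attgtgggagAAGATGGCGgccgccgtcc
Ndufaf8: ggcagggcccAAGATGGCGgcgccctcga
Ndufc1: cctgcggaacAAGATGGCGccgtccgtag
Ndufs4: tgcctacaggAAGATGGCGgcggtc
Ndufs6: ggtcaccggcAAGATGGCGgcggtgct
Ndufs7: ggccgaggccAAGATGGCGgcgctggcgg

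They lie at chr16:84835046-84835074 (Atp5j), chr5:145191500-145191528 (Atp5j2), chr6:126849097-126849125 (Ndufa9), chr11:120098934-120098962 (Ndufaf8), chr3:51408915-51408943 (Ndufc1), chr13:114388045-114388069 (Ndufs4), chr13:73328433-73328459 (Ndufs6) and chr10:80249463-80249491 (Ndufs7). The match holds the letters ATG.

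The 10 NRF1 matches were spread more widely, from position −241 (Atp5l) to position 30 (Uqcrc1) relative to the start, and 7 of them were at members with CHD7 near the start and 3 at members without (Atp5k, Ndufa8 and Uqcr11). The site nearest the start in a member with CHD7 (Ndufaf5) and the 3 sites of members without CHD7 are shown on the strand on which the match reads, with the match in capitals. The sites of Ndufaf5 and Atp5k match on both strands and are shown on the strand of the gene. Those of Ndufa8 and Uqcr11 match on the opposite strand alone.
Ndufaf5: agtcccgttgGCGCATGCGcctaatagaa
Atp5k: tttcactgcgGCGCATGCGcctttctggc
Ndufa8: ggtaccatctGCGCATGCGtctccagcga
Uqcr11: cagacgtataGCGCATGCGtgaaggcgat

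They lie at chr5:108434431-108434459 (Atp5k), chr2:36049329-36049357 (Ndufa8), chr2:140170652-140170680 (Ndufaf5) and chr10:80406808-80406836 (Uqcr11). These matches are letters found in the windows and were not tested for binding.

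Regions more than 1 kb from every protein-coding gene end were assigned to the gene with the nearest end within 100 kb. For CHD7 there were 16 such regions nearest to 15 members (16.1%, beside 23.1% of all genes), and for H3K27ac 10 regions nearest to 8 members (8.60%, beside 18%). The CHD7 count depended on the threshold, with 4 members (4.30%, beside 4.26% of all genes) at a −log10 q of at least 10 and 27 (29.0%, beside 37.2%) with a peak in either library. The median length of the members was 7394 bp against 17574 bp. The strongest distal CHD7 region lay 17.8 kb outside Ndufb3 (chr1:58613724-58614222, 7.94 and 6.60), stronger than the region at the gene itself and without H3K27ac. A region 30.1 kb outside Ndufb4, an accessory subunit of complex I, had CHD7 (chr16:37684508-37685671, 5.45 and 6.14) and H3K27ac (chr16:37684889-37685709, 6.53 and 5.82). Both marks also lay near Atp5a1, the alpha subunit of the ATP synthase, 5.98 kb outside the gene and inside Haus1 (CHD7 4.32 and 4.09, H3K27ac 6.32 and 8.50). Near Ndufa8, CHD7 (3.01 and 3.29) and H3K27ac (3.12 and 3.52) overlapped 24.4 kb outside the gene.

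The CHD7 regions at Cox5a, Cox7a2 and Atp5g3 lay in the gene body and overlapped H3K27ac. They lay within 1 kb of listed starts that are over 1 kb inside these genes, as did the H3K27ac regions inside Cox5a and Cox7a2. The distal counts, which measure distance to gene ends, thus include regions at starts. CHD7 without H3K27ac lay outside Ndufa12 (3.65 and 3.95), Ndufs1 (2.54 and 2.85), Sdhb, Cox7a2l (2.32 and 2.89), Cox8b (2.95 and 2.49), Atp5l (3.20 and 3.26) and Atp5o (3.09 and 2.75), and at a second site 53.4 kb from Atp5g3 (3.00 and 3.08). Outside Ndufv2, CHD7 (4.67 and 3.97) overlapped H3K27ac within Ankrd12. H3K27ac without CHD7 lay outside Ndufv3 (3.38 and 3.40) and Cox7a2l (3.87 and 3.77) and inside Ndufa4l2. The nearest gene end need not be the gene such a region acts on.

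Genes that assemble or regulate the respiratory chain, from lists that hold no members, were counted in the same way, beside 46.2% of all genes for CHD7 and 49.3% for H3K27ac. CHD7 and H3K27ac were at 9 and 10 of 10 further complex I assembly genes, at 4 and 4 of 4 complex II assembly genes, at 7 and 8 of 8 genes of cytochrome c1, cytochrome c and complex III assembly, at 14 and 20 of 21 complex IV assembly genes and at 2 and 2 of 3 ATP synthase assembly genes. The median of their mean CHD7 folds ran from 2.93 (complex III group) to 4.13 (complex II assembly), beside 3.74 over all genes with a region, and of their H3K27ac folds from 5.02 to 5.88, beside 4.81. Cyc1, which encodes cytochrome c1, had H3K27ac (6.86 and 7.47) without CHD7, and Cycs, cytochrome c, had both (CHD7 2.57 and 3.03, H3K27ac 5.99 and 5.32). In complex IV assembly, H3K27ac stood without CHD7 at Cox14, Cox17, Cox20, Sco1, Surf1 and Coa4, and Pet100 had neither.

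Among 16 genes of nuclear regulators and mitochondrial transcription, 14 had CHD7 and 12 had H3K27ac (beside 46.2% and 49.3% of all genes), with a median CHD7 fold of 3.98. Pprc1, a coactivator related to PGC-1alpha, had the highest CHD7 fold in library 1 (8.05 and 5.12), and Tfam, which packages mitochondrial DNA and helps to start its transcription, had 5.14 and 6.31. Nrf1 had CHD7 folds of 5.19 and 4.28, Gabpa 3.23 and 3.98 and Yy1 3.61 and 4.01, each with H3K27ac. Ppargc1a, the PGC-1alpha gene, and Gabpb1 had neither mark, and Polrmt and Ppargc1b had CHD7 alone.

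The cell type of the label was checked by markers in the same way. Of 14 neural crest markers, CHD7 lay at the ends of 2 (Snai2 and Ets1), H3K27ac at 2 (Twist1, 2.36 and 2.97, and Msx2, 2.68 and 2.89) and neither at 10, Sox10 and Foxd3 among them, so marks at gene ends alone do not bear out the label. Of 10 cardiomyocyte markers 0 had either mark, of 10 endothelial markers 3 had CHD7 and 0 had H3K27ac, of 9 blood markers 2 had CHD7 and 3 had H3K27ac (Klf1 4.56 and 4.97, Spi1 4.33 and 5.29), and of 10 epithelial and endodermal markers 1 had CHD7 and 2 had H3K27ac. The part of other cells in the marks at the members was not tested.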

How the data were processed

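The authors deposited a separate peak list for each library. Per the submitters' processing notes, reads were handled with MACS2 2.1.2, Bowtie2 2.3.3.1, bcl2fastq 2.18.0.12 and Picard on mm10. A role of input as control of the calls was not given in the sources used here. Each deposited peak carries a fold enrichment (a ratio), a p-value and a q-value as −log10, and a score derived from the q-value, all by the authors. From these, summits of one interval were joined, with the highest fold kept. Regions were merged overlapping peaks (at least 1 bp) with a peak in both libraries. Gene ends came from the RefSeq table of mm10, which gives no strand, and 105 of 20665 autosomal genes placed below position 3000000 were left out. Starts came from the RefSeq promoter table. The lists hold no counts, so no counting interval was given. Comparisons between groups used exact permutation over libraries (Python 3.11.15, SciPy 1.17.1), and the region scripts were tested on simulated data. Named genes are, per complex, the 3 members with the highest mean fold of each mark, all Sdh genes, all members with a single mark or neither, those nearest to distal regions and the listed isoforms. Members, lists and motifs were chosen with earlier results of these data known. The values of 1 member are not reported here. Alternatives were a stricter q-value, either library, single libraries, other distances, shared regions left out and, chosen after seeing the data, listed starts.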

Additional observations from a re-analysis of the deposited data

How the results depend on the processing

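The counts of members with CHD7 (68), H3K27ac (77) or both (65) moved by less than 1.5 times with a peak in either library, with each library left out, at 500 bp and at 2.5 kb, without the assembly factors and with listed starts added (61 to 82 members over these). With a −log10 q of at least 10, CHD7 was at 14 members and both marks at 12, 78.6% of the CHD7 regions overlapped H3K27ac, and 4 members were nearest to a distal CHD7 region. With a peak in either library, the overlap was 81.1% and 27 members were nearest to a distal region. With shared regions left out, CHD7 was at 33, H3K27ac at 43 and both at 32 members. The overlap of 87.5% ranged from 79.3% to 88.6% with a library left out and was 85.2% when 50% of the CHD7 region had to be covered. The distal count stayed at 15 within 50 kb. With a replicate block, pairing libraries of the same number, the difference between CHD7 and H3K27ac was −4.30 points with p = 0.5, and those against input were 81.7 and 86.0 points with p = 0.5 (exact sign-flip test, 0.5 being the smallest it can give). Deviations of same-numbered CHD7 and H3K27ac libraries had a correlation of 0.00828 over 8462 genes. That value cannot tell whether they came from the same litter or sort, since it compares only called folds. Single members' folds moved by more than the spread of libraries in 19 of 1012 recomputations. That count could hardly be large: for an unchanged region, leaving a library out shifts the fold by less than this spread. Members that lost their region were not counted, 54 of them for CHD7 at the stricter q-value. Depth is unknown, so a missing region may be one not called at the depth used.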

Other observations

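Outside the autosomes, Ndufb11 of complex I on the X chromosome had CHD7 (4.20 and 3.08) and H3K27ac (4.24 and 4.36) at a gene end, Ndufa1 had H3K27ac (3.91 and 3.07) and no CHD7 peak, and Cox7b had H3K27ac (3.96 and 2.83) with a CHD7 peak in library 1 alone (3.11). Of 19 pseudogenes with symbols of the same kind, Atp5l2-ps had H3K27ac (5.23 and 6.17) and Ndufs6b had CHD7 (3.34 and 3.67) in both libraries, and the others had no peak at an end.

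The mitochondrial chromosome, which encodes the remaining subunits, had 5 and 4 peaks in the CHD7 libraries, 1 and 3 in the H3K27ac libraries and 6 and 9 in the input libraries. Their highest folds were 3.49 and 3.86 for CHD7, 2.41 and 2.28 for H3K27ac and 2.15 and 2.13 for input. As input had peaks there too, no enrichment was read from them.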
